A study of Saccharomyces cerevisiae with 12 samples.

Results

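The central domain of the yeast 18S rRNA, the 580 nucleotides that follow position 560 of the sequence named RDN18-2 in the files, was examined by RiboMeth-seq. It comprised 580 of the 5196 nucleotides of the 18S and 25S rRNAs and 7 of their 55 listed 2′-O-methylated sites, against 6 sites in the 560 nucleotides of the 18S 5′ domain and 5 sites in the 660 nucleotides of the 3′ domains. Members are all nucleotides within these limits, and no measured value is part of the rule, although the domain was picked for description with earlier results of these data known. RDN18-2 is a copy of the 18S gene in the ribosomal DNA of chromosome XII, and positions below count from the 5′ end of the mature 18S rRNA.

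Libraries were prepared from total RNA of exponentially growing Saccharomyces cerevisiae, with 3 libraries from each of 4 strains. Δdbp7 + EV lacked the gene for the RNA helicase Dbp7 and carried an empty vector. Δdbp7 + Dbp7DQGD was the same strain expressing, from a plasmid, a Dbp7 that carries a Glu-to-Gln exchange in its DEGD motif and is catalytically inactive. Δdbp7 + Dbp7WT expressed the wild-type protein from such a plasmid in the deletion background, and WT + EV was the wild-type strain with the empty vector. The groups Δdbp7 + EV and Δdbp7 + Dbp7DQGD are together called without active Dbp7 (6 libraries), and Δdbp7 + Dbp7WT and WT + EV with active Dbp7 (6 libraries). The plasmid genes were read from the promoter of DBP7 itself, and every strain carried a plasmid of the same vector type. The libraries held 7498768 to 8009776 read ends in Δdbp7 + EV, 5580519 to 10361153 in Δdbp7 + Dbp7DQGD, 13122842 to 16854403 in Δdbp7 + Dbp7WT and 8578561 to 23549872 in WT + EV. In the central domain this gave a mean of 1137 (Δdbp7 + Dbp7DQGD replicate 3) to 3878 (WT + EV replicate 1) read ends per nucleotide.

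The central domain folds around the platform of the small ribosomal subunit. Its methyl groups are placed on the ribose by box C/D snoRNPs, in which a guide snoRNA pairs with the rRNA and the methyltransferase fibrillarin (Nop1 in yeast) modifies the nucleotide at a fixed distance from box D or D′. In yeast, snR77 guides U578, snR47 guides A619, snR53 guides A796, snR54 guides A974, snR79 guides C1007 and snR41 guides G1126. Dbp7 acts on early precursors of the large subunit, whereas the 18S rRNA belongs to the small subunit, and both rRNAs are cut from 1 common precursor. RiboMeth-seq reads methylation from alkaline fragmentation: a methylated ribose protects the neighbouring bond, so fewer reads start or stop there. The RMS score is 1 minus the read ends at a nucleotide over the weighted mean of the 6 nucleotides on either side. It runs from 0 (no protection) to 1 (no ends at all).

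The 7 sites are given here in their local sequence, 12 nucleotides on either side as the files list them, since each comparison below is read at the capital letter, which marks the methylated nucleotide. The eighth sequence is that of G1035, which is not a listed site and is shown because its 5′ read ends differed most between strains with and without active Dbp7.
G562: agggcaagucugGugccagcagccg
U578: cagcagccgcggUaauuccagcucc
A619: guuguugcaguuAaaaagcucguag
A796: cucgaauauauuAgcauggaauaau
A974: cauuaaucaagaAcgaaaguuaggg
C1007: augaucagauacCgucguagucuua
G1126: guauggucgcaaGgcugaaacuuaa
G1035: auaaacuaugccGacuagggaucgg

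The sites lay unevenly along the domain. G562 and U578 were 16 nucleotides apart and A974 and C1007 were 33 apart, while 177 and 178 nucleotides separated A619 from A796 and A796 from A974. G1035 stood 28 nucleotides downstream of C1007. Of the methylated nucleotides 3 were A, 2 were G, 1 was C and 1 was U, in a stretch of 152 A, 104 C, 150 G and 174 U.

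All 7 sites were highly methylated in every library. The lowest score of any site in any library was 0.784 (A619, WT + EV replicate 3) and the highest 0.980 (G562, WT + EV replicate 2). Averaged over 12 libraries, the score was 0.959 at A974, 0.954 at A796, 0.934 at U578, 0.926 at G1126, 0.923 at C1007, 0.913 at G562 and 0.842 at A619. Neighbours in this order were not separated by their spread: A974 was above A796 in 8 of 12 libraries, A796 above U578 in 8, U578 above G1126 in 7, G1126 above C1007 in 7, and C1007 above G562 in 7. Only the last step was steadier, with G562 above A619 in 11 of 12. The median of the site means was 0.926 in the central domain, between 0.898 in the 5′ domain and 0.968 in the 3′ domains.

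**Figure D1:**
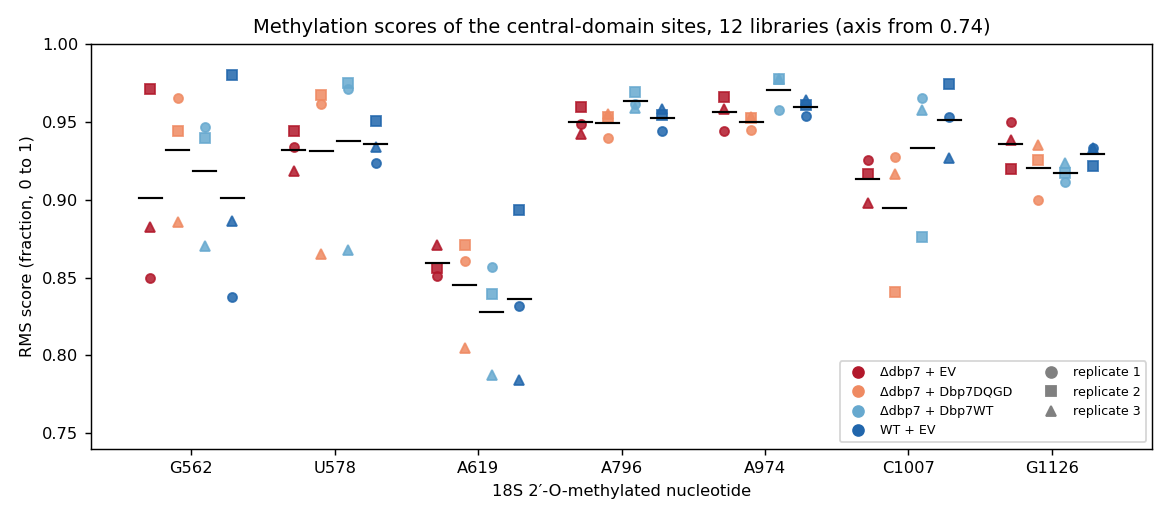
RMS score (fraction, vertical axis from 0.74 to 1) at the 7 sites of the 18S central domain in each library, with colour for the group, marker shape for the replicate number and a bar for the group mean. A619 is the lowest site, with libraries from 0.784 to 0.893, and the libraries of a group lie closest together at A796 and A974.

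The sites differed in how far libraries of 1 group lay apart. At A796 and A974 the within-group SD of the score was 0.00754 and 0.00879, and at G562, U578, A619 and C1007 it was 0.0563, 0.0430, 0.0376 and 0.0369. G562 scored 0.850, 0.971 and 0.883 in Δdbp7 + EV, 0.966, 0.944 and 0.885 in Δdbp7 + Dbp7DQGD, 0.946, 0.940 and 0.870 in Δdbp7 + Dbp7WT and 0.837, 0.980 and 0.887 in WT + EV. All 4 groups of G562 overlapped. The widest exact Poisson interval of a score, from its lower to its upper limit, was 0.0507 at U578, 0.0505 at A619 and 0.0481 at G562. It was 0.0371 at G1126, 0.0347 at C1007, 0.0272 at A974 and 0.0260 at A796. The full width of an interval and an SD are unlike measures, so intervals of single libraries were compared instead. At G562 the Δdbp7 + EV libraries scoring 0.850 and 0.971 had intervals of 0.825 to 0.871 and 0.958 to 0.981. At C1007 the Δdbp7 + Dbp7DQGD libraries scoring 0.927 and 0.840 had intervals of 0.913 to 0.940 and 0.822 to 0.857. These libraries of the same group thus lay apart beyond counting error. At A796 the intervals overlapped within every group. The cause of the wider spread was not tested.

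At G562, C1007 and A619 the spread lay mostly in the 3′ read ends, and the other sites also spread more there. Recomputed from 5′ read ends alone, the within-group SD was 0.00583 at G562, 0.00741 at C1007 and 0.0260 at A619. From 3′ read ends alone it was 0.0865 at G562, 0.0709 at C1007 and 0.0941 at A619. The SD from 3′ against 5′ ends was 0.0789 against 0.0303 at U578 and 0.0204 against 0.00595 at A974. It was 0.0265 against 0.0130 at G1126 and 0.0106 against 0.00811 at A796. The 5′ ends made up 50.4% of all read ends of the domain, but 6.40% at G562, 28.0% at C1007 and 81.7% at A619. The summed score thus came mostly from 3′ ends at G562 and C1007 and from 5′ ends at A619. This difference in precision bears on each comparison below.

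On the deposited scores, none of the 7 sites passed the test in any comparison. Δdbp7 + EV against WT + EV gave 0 of 7 sites past an adjusted p of 0.05 with limma, where 9.09% of all 55 sites passed. Δdbp7 + Dbp7DQGD against Δdbp7 + Dbp7WT also gave 0 of 7, where 10.9% of all sites passed, and the groups without active Dbp7 against those with it gave 0 of 7, where 16.4% passed. The remaining comparisons likewise gave 0 of 7, with 16.4% of all sites called for Δdbp7 + Dbp7DQGD against WT + EV, 3.64% for Δdbp7 + Dbp7WT against Δdbp7 + EV, and 0% each for Δdbp7 + Dbp7WT against WT + EV, for Δdbp7 + Dbp7DQGD against Δdbp7 + EV and for the difference between both effects. At an unadjusted p under 0.05 the count was 1 of 7 for Δdbp7 + Dbp7DQGD against Δdbp7 + Dbp7WT (A974) and 0 of 7 in the other comparisons, and edgeR on the read-end sums also called 0 of 7 in each. The median difference over the 7 sites was -0.00231 for Δdbp7 + EV against WT + EV and -0.00676 for Δdbp7 + Dbp7DQGD against Δdbp7 + Dbp7WT, beside medians of -0.00709 and -0.0140 over all sites.

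C1007, the snR79 target, had the lowest values relative to its reference in both comparisons. It scored 0.926, 0.917 and 0.898 in Δdbp7 + EV, against 0.953, 0.974 and 0.927 in WT + EV, and these groups did not overlap. It scored 0.927, 0.840 and 0.917 in Δdbp7 + Dbp7DQGD, against 0.965, 0.876 and 0.958 in Δdbp7 + Dbp7WT, and replicate 2 was the lowest of each of these groups, so that they overlapped. The difference was -0.0381 (SE 0.0283, limma adjusted p = 0.610) for Δdbp7 + EV minus WT + EV and -0.0382 (SE 0.0283, adjusted p = 0.536) for Δdbp7 + Dbp7DQGD minus Δdbp7 + Dbp7WT. The second difference depended on replicate 2, with -0.0110 when the Δdbp7 + Dbp7DQGD library and -0.0666 when the Δdbp7 + Dbp7WT library of that number was left out (adjusted p = 0.981 and 0.160), and it was -0.0221 without Δdbp7 + Dbp7WT replicate 1. Same-numbered libraries moved together in this series, and every one of the 6 pairs was lower without active Dbp7, with differences of -0.0574 to -0.0277 with the empty vector and of -0.0408 to -0.0359 with the plasmid-borne proteins. With the pairs as a replicate block, C1007 passed in both comparisons (SE 0.00727, adjusted p = 0.00798 and 0.00871) and over all 12 libraries (-0.0382, SE 0.00514, adjusted p = 0.00108). It was then 1 of 7 sites called for Δdbp7 + EV against WT + EV, where 30.9% of all sites were called, 1 of 2 called for Δdbp7 + Dbp7DQGD against Δdbp7 + Dbp7WT (29.1% of all), and the 1 site called over both sets (38.2% of all). The share of members called was thus at or below that of all sites.

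**Figure D2:**
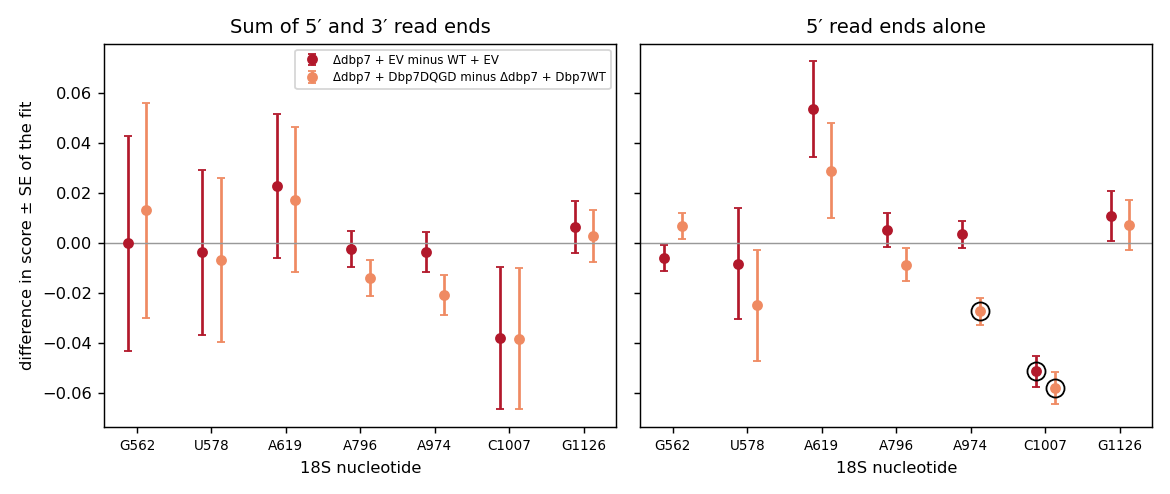
Difference in score at the 7 sites for Δdbp7 + EV minus WT + EV (red) and Δdbp7 + Dbp7DQGD minus Δdbp7 + Dbp7WT (orange), from the sum of read ends (left) and from 5′ read ends alone (right). Points are fitted differences, bars the SE of the fit over 12 libraries, and rings mark an adjusted p under 0.05. At C1007 the difference is -0.0381 and -0.0382 on the left and -0.0514 and -0.0580 on the right, where the bars are shorter.

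The 5′ read ends of C1007 separated the strains without overlap. The score from 5′ ends was 0.940, 0.931 and 0.916 in Δdbp7 + EV and 0.931, 0.918 and 0.919 in Δdbp7 + Dbp7DQGD, against 0.981, 0.979 and 0.981 in Δdbp7 + Dbp7WT and 0.979, 0.983 and 0.978 in WT + EV. All 6 libraries without active Dbp7 lay below all 6 with it. How many of the 55 sites separated in this way was not counted. From 5′ ends, limma called 41.8% of all 55 sites without against with active Dbp7. The 5′ scores of C1007 rest on 49, 51 and 74 ends in Δdbp7 + EV and 51, 94 and 74 in Δdbp7 + Dbp7DQGD. In Δdbp7 + Dbp7WT they rest on 31, 30 and 33 and in WT + EV on 52, 36 and 15, although the libraries with active Dbp7 were mostly deeper. As a share of the flanking mean, 5′ ends at C1007 came to 0.0598 to 0.0845 without active Dbp7, against 0.0165 to 0.0216 with it. The 5′ score fell by 0.0514 in Δdbp7 + EV relative to WT + EV (SE 0.0063, limma adjusted p = 0.000167) and by 0.0580 in Δdbp7 + Dbp7DQGD relative to Δdbp7 + Dbp7WT (SE 0.0063, adjusted p = 5.61e-05), and both calls were kept when any 1 library was left out.

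The other strain comparisons at C1007 ran the same way. The 5′ score was 0.0514 higher in Δdbp7 + Dbp7WT than in Δdbp7 + EV (limma adjusted p = 0.000249), and it fell by 0.0579 in Δdbp7 + Dbp7DQGD relative to WT + EV (adjusted p = 4.22e-05). Between Δdbp7 + Dbp7DQGD and Δdbp7 + EV the difference was -0.00657 (SE 0.0063, adjusted p = 0.609), and between Δdbp7 + Dbp7WT and WT + EV it was 2.02e-05 (SE 0.0063, adjusted p = 0.998). The effect with the plasmid-borne proteins and the effect with the empty vector differed by -0.00659 (SE 0.0089, adjusted p = 0.844). The comparisons share libraries and are therefore not independent of each other. Apart from the difference between effects, they also set an empty-vector group against a plasmid-borne group, whose same-numbered libraries did not move together. A difference between these sets of libraries cannot be told apart there from one between strains.

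The groups overlapped in the 3′ read ends of C1007. The 3′ score was 0.909, 0.909 and 0.872 in Δdbp7 + EV and 0.924, 0.747 and 0.915 in Δdbp7 + Dbp7DQGD, against 0.949, 0.790 and 0.934 in Δdbp7 + Dbp7WT and 0.925, 0.965 and 0.874 in WT + EV. Replicate 2 of both plasmid-borne groups stood far below the other libraries, with 240 and 350 ends. Within pairs the 3′ score was lower without active Dbp7 in 6 of 6, by differences of -0.0158, -0.0558 and -0.00151 with the empty vector and of -0.0251, -0.0432 and -0.0198 with the plasmid-borne proteins. From 3′ ends alone none of the 7 sites passed in any comparison, in the fit without the pairs.

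Counted over the domain, 5′ ends alone called 1 of 7 sites (C1007) for Δdbp7 + EV against WT + EV, where 30.9% of all sites passed, 2 of 7 (C1007 and A974) for Δdbp7 + Dbp7DQGD against Δdbp7 + Dbp7WT, where 25.5% passed, and 3 of 7 (C1007, A974 and A619) without against with active Dbp7, where 41.8% passed. Against WT + EV, Δdbp7 + Dbp7DQGD had 2 of 7 called (C1007 and A619, 41.8% of all sites). Δdbp7 + Dbp7WT had 1 of 7 called against Δdbp7 + EV (23.6% of all) and 0 of 7 against WT + EV (3.64% of all). For Δdbp7 + Dbp7DQGD against Δdbp7 + EV it was 0 of 7 (0% of all), with 1 of 7 at an unadjusted p under 0.05. The member shares were close to or below those of all sites. With the pairs as a block, the counts were 2, 2 and 2 of 7 in the first 3 comparisons, beside 40%, 29.1% and 41.8% of all sites.

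A974, guided by snR54, was lower with inactive than with wild-type plasmid-borne Dbp7. Its score was 0.945, 0.952 and 0.953 in Δdbp7 + Dbp7DQGD, against 0.957, 0.977 and 0.977 in Δdbp7 + Dbp7WT, without overlap (difference -0.0207, SE 0.00796, limma adjusted p = 0.155, and 0.0375 with the pairs as a block). From 5′ ends it was 0.952, 0.944 and 0.949 in Δdbp7 + Dbp7DQGD, against 0.976, 0.974 and 0.978 in Δdbp7 + Dbp7WT, and the fall of 0.0273 passed (SE 0.00542, adjusted p = 0.0033, and 0.0102 with the pairs as a block). The 3′ scores of these groups overlapped, at 0.934, 0.964 and 0.963 in Δdbp7 + Dbp7DQGD, against 0.934, 0.984 and 0.976 in Δdbp7 + Dbp7WT.

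With the empty vector, A974 showed no such gap. The 5′ score was 0.953, 0.965 and 0.975 in Δdbp7 + EV, against 0.960, 0.963 and 0.960 in WT + EV, and the difference was 0.00346 (SE 0.00542, adjusted p = 0.643). The effects with the plasmid-borne proteins and with the empty vector differed by -0.0308 (SE 0.00766, adjusted p = 0.0434), which made A974 the 1 of 7 sites called in that test, where 5.45% of all sites passed. With the pairs as a block this call was lost (adjusted p = 0.136, with 0 of 7 members and 3.64% of all sites called), and it was also lost in 10 of the 12 fits that left out 1 library. Over all 12 libraries the 5′ score was 0.0119 lower without active Dbp7 (adjusted p = 0.0268, and 0.0533 with the pairs as a block). On the summed scores with the pairs as a block, the difference between both effects called 0 of 7 sites, with 3.64% of all sites called.

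A619, guided by snR47 and the least methylated site of the domain, lay on the other side. From 5′ ends, which hold most of its counts, it scored 0.827, 0.835 and 0.838 in Δdbp7 + EV and 0.821, 0.824 and 0.854 in Δdbp7 + Dbp7DQGD, against 0.808, 0.791 and 0.814 in Δdbp7 + Dbp7WT and 0.781, 0.826 and 0.732 in WT + EV. The 6 libraries without active Dbp7 were mostly above those with it, and WT + EV replicate 2 overlapped them. The 5′ score was 0.0413 higher without active Dbp7 (SE 0.0135, limma adjusted p = 0.029). For Δdbp7 + EV minus WT + EV the difference was 0.0536 (adjusted p = 0.0571, and 0.0421 with the pairs as a block), and for Δdbp7 + Dbp7DQGD minus Δdbp7 + Dbp7WT it was 0.029 (adjusted p = 0.304). The call over all libraries was lost without any 1 of 5 libraries (Δdbp7 + EV replicates 2 and 3, Δdbp7 + Dbp7DQGD replicate 3, Δdbp7 + Dbp7WT replicate 2 and WT + EV replicate 1), with adjusted p of 0.0531 to 0.0731. For Δdbp7 + Dbp7DQGD minus WT + EV the difference was 0.0534 (adjusted p = 0.0455), a call that was kept in 1 of 6 fits leaving out 1 library, that without WT + EV replicate 2, with differences of 0.0296 to 0.0764 and an adjusted p of up to 0.154. From the sum of read ends the difference over all libraries was 0.0202 (SE 0.0204, adjusted p = 0.613), and from 3′ ends it was -0.0158, of the opposite sign.

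Guides with a second target allowed a comparison within a guide. snR47 also guides A2220 of the 25S rRNA, whose 5′ score fell by 0.0225 in Δdbp7 + EV relative to WT + EV (limma adjusted p = 0.0211) and by 0.0248 in Δdbp7 + Dbp7DQGD relative to Δdbp7 + Dbp7WT (adjusted p = 0.0133), while A619 was not lower. On the summed scores A2220 differed by -0.0302 (adjusted p = 0.0592, and 0.0261 with the pairs as a block) and -0.0368 (adjusted p = 0.032, and 0.0131 with the pairs as a block). snR41 also guides A541 in the 5′ domain of 18S. Neither A541 nor G1126 was called, with differences of -0.0108 (SE 0.0769) and 0.00644 (SE 0.0106) for Δdbp7 + EV minus WT + EV.

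The remaining sites gave no call in any setting run. U578, guided by snR77, scored 0.934, 0.944 and 0.918 in Δdbp7 + EV, against 0.923, 0.950 and 0.934 in WT + EV. A796, guided by snR53, scored 0.940, 0.953 and 0.955 in Δdbp7 + Dbp7DQGD, against 0.961, 0.969 and 0.959 in Δdbp7 + Dbp7WT. These A796 groups did not overlap, and the difference of -0.0139 (SE 0.00717) had an adjusted p of 0.304 (0.177 with the pairs as a block).

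**Figure D3:**
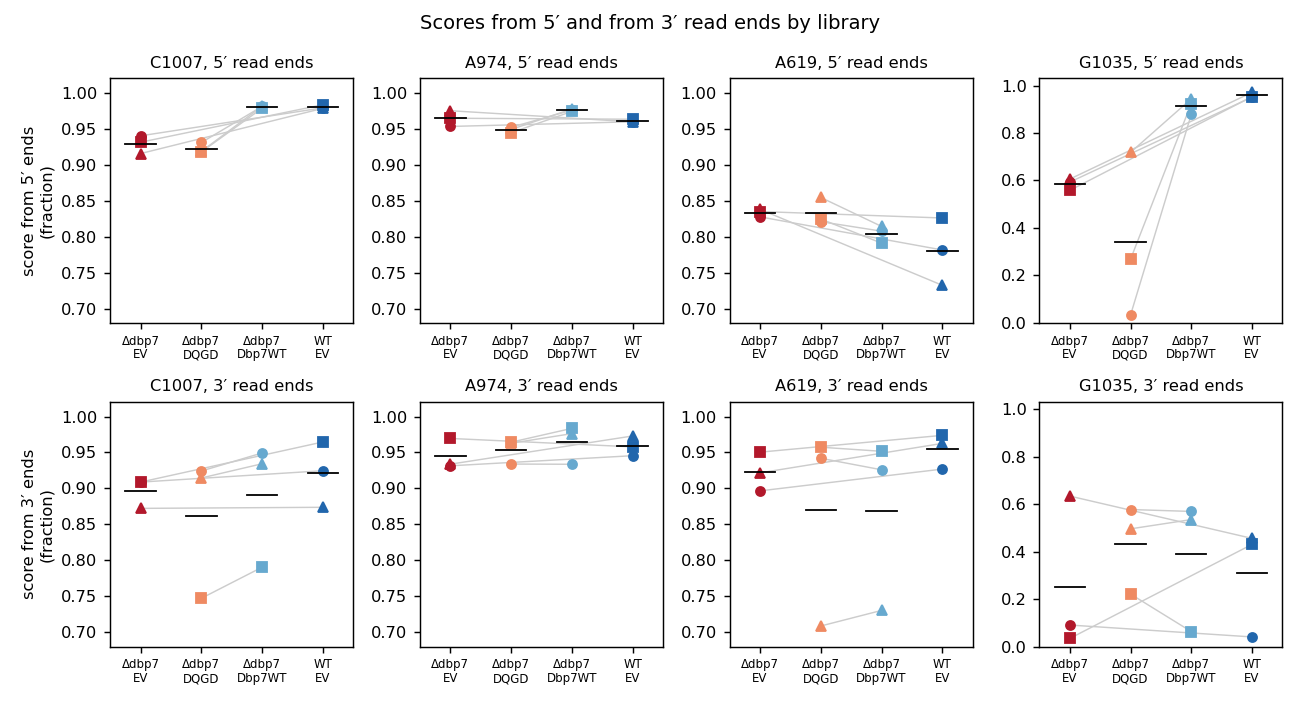
Scores from 5′ read ends (top) and 3′ read ends (bottom) at C1007, A974, A619 and G1035 in each library (fraction), by group, with a bar for the group mean and grey lines joining same-numbered libraries. The axis starts at 0.68 for the 3 listed sites and at 0 for G1035. At C1007 the 5′ score lies at 0.916 to 0.940 without active Dbp7 and at 0.978 to 0.983 with it, and at G1035 at 0.0326 to 0.718 and 0.879 to 0.971, while the 3′ scores overlap.

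The nucleotide scan asked whether any other nucleotide of the domain changed its read ends relative to its flanks. All 580 nucleotides passed the minimum of 50 on the flanking mean and were tested. With edgeR's quasi-likelihood test on summed ends, 0 of 580 passed in each of the 3 comparisons run (0% of 5172 nucleotides called in each), and 6, 4 and 11 had an unadjusted p under 0.05, for Δdbp7 + EV minus WT + EV, Δdbp7 + Dbp7DQGD minus Δdbp7 + Dbp7WT and without minus with active Dbp7 in this order. DESeq2 also called 0 in the domain, with 0.0193%, 0% and 0.116% of all nucleotides called. With the pairs as a block, 0 were called in the domain, with 0.058%, 0% and 0.271% of all. The smallest p in the domain belonged to U959 (log2 difference -0.27), A963 (0.34) and C937 (0.44) for the deletion with the empty vector, to U1012 (-0.35), A974 (0.76) and G976 (0.23) for Dbp7DQGD against Dbp7WT, and to G976 (0.20), A769 (0.28) and U959 (-0.18) over all libraries, with adjusted p near 1 throughout. G976 lies just downstream of A974. Its read ends were at 0.904 to 1.01 of the flanks without active Dbp7, against 0.807 to 0.850 with it, without overlap. From 5′ ends alone and from 3′ ends alone the ranges of G976 overlapped. G976 was picked from 580 nucleotides for its small p in this same comparison, so the lack of overlap is not separate evidence of a change.

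With 5′ read ends alone, the scan called 2 nucleotides of the domain for Δdbp7 + EV minus WT + EV (0.136% of 5141 nucleotides called), the same 2 for Δdbp7 + Dbp7DQGD minus Δdbp7 + Dbp7WT (0.0584% of all) and 3 without minus with active Dbp7 (0.311% of all). C1007 and G1035 were called in all 3 comparisons. 5′ ends relative to the flanks rose at C1007 by 1.87, 1.98 and 1.93 on the log2 scale (edgeR adjusted p = 0.00427, 0.00205 and 6.06e-05). The third nucleotide was C747, with 0.50 (SE 0.09, adjusted p = 0.0342) over all libraries. That call was lost in 11 of the 12 fits that left out 1 library and kept only without WT + EV replicate 3. With the pairs as a block the 5′ scan called 2, 2 and 10 nucleotides of the domain, beside 0.214%, 0.0778% and 1.24% of all.

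**Figure D4:**
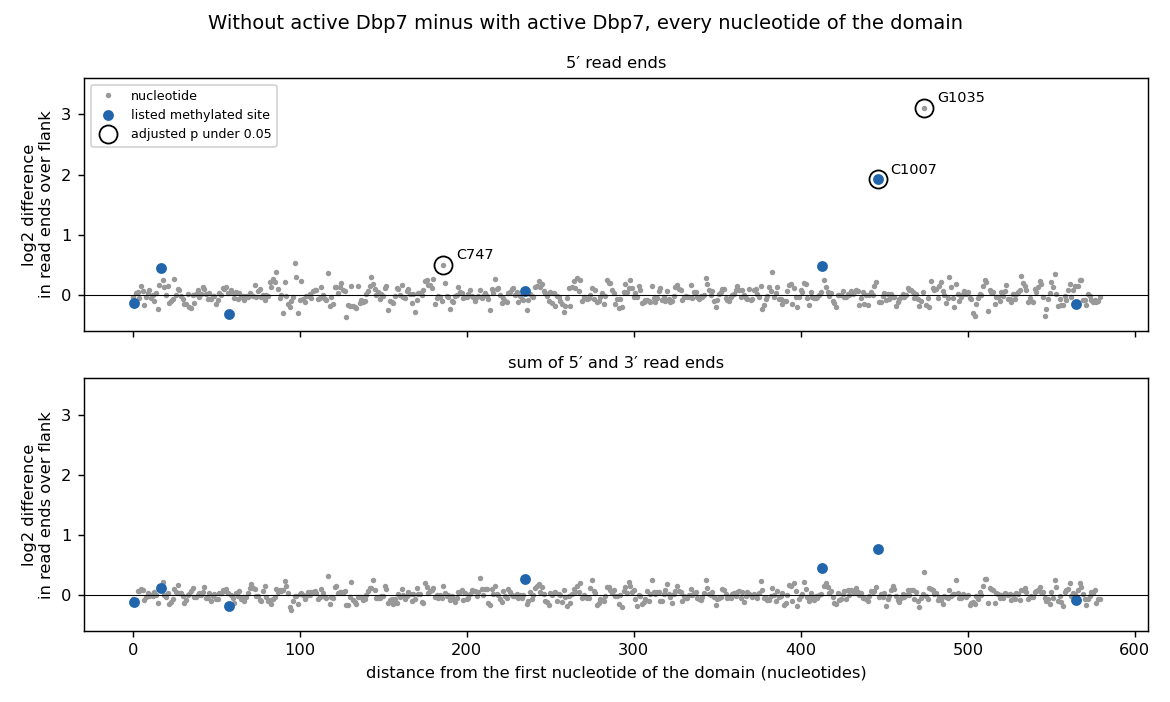
Log2 difference in read ends relative to the flanking mean, without minus with active Dbp7, at every nucleotide of the domain by distance from its first nucleotide, from 5′ ends (top) and from the sum of ends (bottom). Blue points are the listed sites and rings an adjusted p under 0.05 with edgeR. From 5′ ends G1035 stands at 3.11, C1007 at 1.93 and C747 at 0.50; from the sum no nucleotide is ringed.

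G1035 is not among the listed methylated sites and was picked for description because the scan called it. It had 122, 139 and 142 5′ read ends in Δdbp7 + EV, against 37, 27 and 9 in WT + EV. In the plasmid-borne groups it had 344, 371 and 85 in Δdbp7 + Dbp7DQGD, against 79, 38 and 28 in Δdbp7 + Dbp7WT. Relative to the flanks this was 0.407, 0.442 and 0.394 in Δdbp7 + EV and 0.967, 0.732 and 0.282 in Δdbp7 + Dbp7DQGD, against 0.121, 0.0757 and 0.0558 in Δdbp7 + Dbp7WT and 0.0485, 0.0468 and 0.0285 in WT + EV. Every library without active Dbp7 was above every library with it, and the Dbp7DQGD libraries spread over a wide range. The scan that picked G1035 used these same 5′ ends. The lack of overlap is therefore not separate evidence of a change.

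The rise at G1035 was 3.27 on the log2 scale (SE 0.43, edgeR adjusted p = 0.0065) in Δdbp7 + EV relative to WT + EV, 2.95 (SE 0.40, adjusted p = 0.0118) in Δdbp7 + Dbp7DQGD relative to Δdbp7 + Dbp7WT and 3.11 (SE 0.30, adjusted p = 0.000225) over all libraries. The first call was lost without WT + EV replicate 1 (adjusted p = 0.0604) or 2 (0.0658), the second without Δdbp7 + Dbp7DQGD replicate 2 (0.0551), or without replicate 2 (0.0909) or 3 (0.105) of Δdbp7 + Dbp7WT, and the third in none of 12 such fits. The mean 5′ score of G1035 was 0.463 without active Dbp7, against 0.937 with it. The level with active Dbp7 ranked behind G562, C1007, A974, U578 and A796 and ahead of the listed sites G1126 and A619. By the same measure the unlisted G643 (0.815), C1066 (0.808) and A1065 (0.803) also ranked ahead of A619 (0.792). A rank ahead of A619 thus did not set listed sites apart from unlisted nucleotides.

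The 3′ ends at G1035 showed no such pattern. There were 638, 643 and 265 in Δdbp7 + EV and 263, 705 and 368 in Δdbp7 + Dbp7DQGD, against 616, 1019 and 732 in Δdbp7 + Dbp7WT and 2110, 1036 and 326 in WT + EV. The mean 3′ score was 0.342 without active Dbp7 and 0.349 with it, so the summed score (0.202 to 0.625, against 0.275 to 0.666) overlapped between the classes. Nucleotides next to G1035 had 5′ ends of similar level in both classes: C1034 averaged 1.47 of its flanks without active Dbp7 and 1.43 with it, and A1036 averaged 0.766 and 0.855. Whether G1035 is modified was not tested.

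On the summed score, other nucleotides outside the list seldom reached the level of a methylated site. Of 573 unlisted nucleotides, 0 had a score of at least 0.75 in all 12 libraries, and 2 reached it in at least 1 library. These were the neighbours A1065 (mean 0.753, 5 libraries) and C1066 (mean 0.688, 2 libraries). The median of the mean scores of unlisted nucleotides was 0.0615. Pseudouridines, made by box H/ACA snoRNPs, were also read: the mean score was 0.608 at U766, 0.507 at U999, 0.476 at U632 and 0.161 at U759.

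The number of read ends depended on the base. With listed sites left out, mean read ends relative to the flanks were 0.963 at A, 1.10 at C, 0.876 at G and 1.10 at U. They were 0.966, 1.10, 0.876 and 1.10 without active Dbp7, against 0.960, 1.10, 0.875 and 1.11 with it.

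The domain as a whole took a steady part of the 18S read ends. The share was 31.4, 31.7 and 31.1% in Δdbp7 + EV, 31.5, 30.9 and 32.9% in Δdbp7 + Dbp7DQGD, 32.3, 31.4 and 33.7% in Δdbp7 + Dbp7WT and 31.7, 32.4 and 30.5% in WT + EV, and all groups overlapped. The domain held 32.2% of the 18S nucleotides. In windows of 20 nucleotides, mean read ends per 1000 18S ends ran from 6.23 at nucleotides 1061 to 1080 to 14.4 at 881 to 900.

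Within 18S, no window passed the test. Of 29 windows of the domain, 0 passed with edgeR in each of the 3 comparisons when the total of the same rRNA was the offset (0% of 260 windows each), 0 had an unadjusted p under 0.05 and DESeq2 called 0. The smallest p belonged to windows 841 to 860 (log2 difference 0.22) and 661 to 680 (0.21) for Δdbp7 + EV minus WT + EV, to 741 to 760 (-0.20) and 661 to 680 (0.20) for Δdbp7 + Dbp7DQGD minus Δdbp7 + Dbp7WT, and to 661 to 680 (0.20) and 841 to 860 (0.16) over all libraries.

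Relative to 25S rRNA, the domain was higher without active Dbp7. Its read ends per 100 ends of 25S were 22.5, 20.2 and 22.3 in Δdbp7 + EV, against 15.5, 16.1 and 14.2 in WT + EV. They were 21.04, 21.5 and 24.4 in Δdbp7 + Dbp7DQGD, against 14.9, 14.3 and 16.1 in Δdbp7 + Dbp7WT. All 6 libraries without active Dbp7 lay above all 6 with it, and the ratio of all 18S to all 25S ends moved alike (0.638 to 0.742, against 0.456 to 0.496). Under TMM scaling over both rRNAs the windows therefore took up this shift: 3, 11 and 21 of the 29 windows were called in the 3 comparisons, beside 4.62%, 16.9% and 29.6% of all 260 windows, and the median log2 difference of the domain was 0.34, 0.42 and 0.40, beside -0.04, -0.08 and -0.08 over all windows. As a share of all read ends, 25S took 45.0 to 52.4% without active Dbp7, against 60.4 to 64.3% with it, 18S took 31.3 to 35.9%, against 28.0 to 30.2%, and the other RNAs in the files took 12.6 to 22.8%, against 6.04 to 11.6%. The lower share of 25S was thus the largest shift in percentage points, while the other RNAs moved most relative to their own share. Since shares of a library add up to a whole, absolute amounts of either rRNA were not measured.

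**Figure D5:**
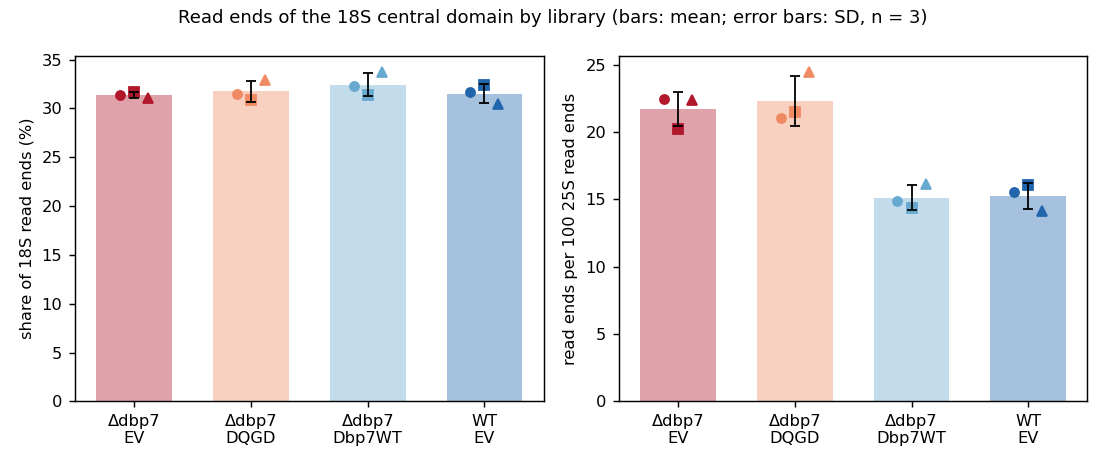
Read ends of the 18S central domain in each library as a percentage of all 18S ends (left) and per 100 ends of 25S rRNA (right), with bars for the group mean and error bars for the SD (n = 3). On the left the groups overlap at 30.5 to 33.7%; on the right all libraries without active Dbp7 (20.2 to 24.4) lie above those with it (14.2 to 16.1).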

How the data were processed

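RiboMeth-seq libraries were made by the authors from alkali-fragmented total RNA, size-selected fragments and Ion Proton sequencing. Per the submitters' processing notes, cutadapt 2.0 and Bowtie2 2.3.4.1 were used, and the genome build is not given in the sources used here. The authors deposited, for every nucleotide, unnormalized counts of reads starting (5′ ends) and stopping (3′ ends) there, the summed count, and the RMS score as a fraction from 0 to 1. Recomputed scores matched the deposited fraction within 5.0e-10. A barcode correction is mentioned in the methods for a few unnamed sites. Other score columns of the single samples (24) were not used, nor were the authors' group means, which matched the library means at the 7 sites within 3.37e-07.

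Scores of single libraries at 55 sites were tested with limma 3.58.1 in R 4.3.3 (1 mean per group, two-sided, Benjamini-Hochberg over all sites, called at an adjusted p under 0.05). Read ends at nucleotides (offset: flanking mean of at least 50) and in windows of 20 nucleotides (offset: total of the same rRNA) were tested with edgeR 4.0.16. DESeq2 1.42.0 was an alternative. The limma and edgeR fits without blocks were tried on simulated data for without against with active Dbp7, while DESeq2 and the blocks were not. Alternatives were the fit on the groups compared alone, a logit scale, 4 unweighted flanking nucleotides, 5′ or 3′ ends alone, replicate blocks, a flanking minimum of 500 or none, windows of 40, TMM and leaving out each library. Blocks and left-out libraries for the 5′ ends were added after seeing the data.

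Replicate numbers come from the labels, and the series calls the replicates biological. Deviations from group means at the 55 sites correlated at 0.839 to 0.930 in the 6 same-numbered pairs of WT + EV with Δdbp7 + EV and of Dbp7WT with Dbp7DQGD, and at -0.205 to 0.113 in the 12 other same-numbered combinations, so pairs were taken within these sets. The members, lists and tests were chosen with earlier results of these data known. Named were all 7 sites, the nucleotides and windows of the domain that passed or had the smallest p, unlisted nucleotides with a score of at least 0.75, and 4 pseudouridines. Named after their values were seen were G1035, C747, G643, and A1065 and C1066. Read ends are not independent molecules, so counting intervals cover counting error only. Guide sequences were not analysed here.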

Additional observations from a re-analysis of the deposited data

Results flagged for a closer look

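With 28 sets of 6 libraries examined, 1 in 20 of which chance alone would single out, 3 libraries stood apart from the other 5 of their class. In the 6 libraries without active Dbp7, the A619 score of Δdbp7 + Dbp7DQGD replicate 3 was 0.805, with the next at 0.851, and the C1007 score of Δdbp7 + Dbp7DQGD replicate 2 was 0.840, with the next at 0.898. The G1126 score from 5′ ends was highest in Δdbp7 + EV replicate 1, at 0.941 with the next at 0.916. At A619 and C1007 the same-numbered Δdbp7 + Dbp7WT library was the lowest of its own group, at 0.788 and 0.876, and in both cases the low value lay in the 3′ ends. Without Δdbp7 + Dbp7DQGD replicate 2, the summed C1007 score differed by -0.0110 from Δdbp7 + Dbp7WT.

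The A974 effect from 5′ ends differed between the plasmid-borne pair and the empty-vector pair, by -0.0308 (limma adjusted p = 0.0434). The range of the adjusted p over fits that left out 1 library was 0.00428 to 0.135.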

How the results depend on the processing

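Of the alternatives for single sites, nucleotides and windows, 830 gave the same direction and side of the threshold as reported, 23 passed where the reported fit did not, 44 lost a call and 64 changed sign. Counts of called members were within 1.5 times the reported count in 254 alternatives and beyond it in 43.

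The reported count of called sites was 0 in each comparison. It became 1, 2 and 3 from 5′ ends for Δdbp7 + EV minus WT + EV, Δdbp7 + Dbp7DQGD minus Δdbp7 + Dbp7WT and without minus with active Dbp7, and 1, 2 and 1 for Δdbp7 + Dbp7WT minus Δdbp7 + EV, Δdbp7 + Dbp7DQGD minus WT + EV and the difference between effects. With the pairs as a replicate block it was 1, 2 and 1 in the first 3, and with the number as a block over all libraries 1 for the Dbp7 proteins. From 5′ ends, the replicate block of pairs gave 2 for Δdbp7 + EV minus WT + EV and 0 for the difference between effects, and the block by number gave 1 for Δdbp7 + Dbp7DQGD minus WT + EV and 0 for the difference. The nucleotide scan (0) gave 2, 2 and 3 from 5′ ends. With the pairs as a block it gave 10 over all libraries from 5′ ends and still 0 from summed ends. The window scan (0) gave 3, 11 and 21 under TMM, in which the shift of 18S against 25S enters.

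Leaving out 1 library, 5′ counts ranged from 1 to 2 (Δdbp7 + EV minus WT + EV, Δdbp7 + Dbp7WT minus Δdbp7 + EV, Δdbp7 + Dbp7DQGD minus WT + EV, and both 5′ scans of the pairs), 2 to 3 (without minus with active Dbp7, sites and scan) and 0 to 1 (difference between effects). From 5′ ends, A974 over all libraries was lost without Δdbp7 + Dbp7DQGD replicate 2, Δdbp7 + Dbp7WT replicates 1 and 3 or WT + EV replicate 2 (adjusted p 0.0517 to 0.0623). A619 in Δdbp7 + EV passed without WT + EV replicate 2 (0.00381), and A619 in Δdbp7 + Dbp7DQGD against WT + EV was kept in 1 of 6 fits, that without WT + EV replicate 2.

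Signs also turned, and the cause was not tested. From 3′ ends alone, Δdbp7 + EV minus WT + EV gave 0.00474 at G562, 0.000647 at U578 and -0.0316 at A619, Δdbp7 + Dbp7DQGD minus Δdbp7 + Dbp7WT gave 0.0124 at U578 and -0.00228 at G1126, and A619 gave -0.0158 over all libraries, -0.0851 for Δdbp7 + Dbp7DQGD minus WT + EV and 0.0316 for the difference between effects. C1007 gave -0.00525 for Δdbp7 + Dbp7WT minus Δdbp7 + EV, and A974 0.00878 for Δdbp7 + Dbp7DQGD minus Δdbp7 + EV and 0.0031 for the difference. From 5′ ends, A796 gave 0.00532 and A974 0.00346 for Δdbp7 + EV minus WT + EV, and A619 0.0244 and C1007 2.02e-05 for Δdbp7 + Dbp7WT minus WT + EV. The difference between effects at C1007 was 0.00256 with 4 flanking nucleotides, 0.19 (log2) with edgeR and 0.0991 on the logit scale. Window 741 to 760 was 0.24 for the Dbp7 proteins under TMM.

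Leaving out 1 library, Δdbp7 + EV minus WT + EV ranged from -0.0351 to 0.0392 at G562, -0.00996 to 0.00355 at U578, -0.00318 to 0.0514 at A619, -0.00703 to 0.00172 at A796, -0.00854 to 0.00252 at A974 (5′ ends -0.00194 to 0.00900) and -0.000466 to 0.0145 at G1126. Δdbp7 + Dbp7DQGD minus Δdbp7 + Dbp7WT ranged from -0.0112 to 0.0363 at G562, -0.0420 to 0.0264 at U578, -0.00274 to 0.0377 at A619 and -0.00473 to 0.0131 at G1126. At C1007, Δdbp7 + Dbp7WT minus WT + EV ranged from -0.0345 to 0.0100 (5′ ends -0.000942 to 0.00158), Δdbp7 + Dbp7DQGD minus Δdbp7 + EV from -0.0347 to 0.00872 and the difference between effects from -0.0285 to 0.0271. At A619 these were -0.0345 to 0.0201, -0.0267 to 0.00642 (5′ ends -0.0108 to 0.00603) and -0.0340 to 0.0206, and Δdbp7 + Dbp7DQGD minus WT + EV ranged from -0.0171 to 0.0375. The block by pairs changed no other call than those given. With 3 libraries per group, the 3′ ends at C1007 and G562 limit what the summed score can resolve.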
